A study of Homo sapiens with 12 samples.

Results

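Selenoproteins and the factors that make and insert selenocysteine were followed across 2 cell lines given geniposide. The group holds 32 of the 58735 genes in the deposited table, taken by gene name, and comprises 25 genes that encode selenoproteins and 7 that encode machinery without selenocysteine. Geniposide is an iridoid glycoside of gardenia fruit. RNA was sequenced from 4 groups of 3 libraries: Huh7 cells given geniposide for 48 h, untreated Huh7 cells, HepG2 cells given geniposide for 48 h, and untreated HepG2 cells. Huh7 is a hepatocellular carcinoma line and HepG2 a hepatoblastoma line, each an established line of a single donor, and the labels give no dose. By its title the study concerns ferroptosis, a cell death by lipid peroxidation that the selenoprotein GPX4 restrains.

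Selenocysteine is the selenium analogue of cysteine. It is built on its own transfer RNA: SARS1 charges that RNA with serine, PSTK phosphorylates the serine, and SEPSECS exchanges the phosphate for selenium that SEPHS2 has activated as selenophosphate. During translation a UGA codon, otherwise a stop, is read as selenocysteine when a hairpin in the 3′ untranslated region, the SECIS element, is bound by SECISBP2, which brings in the elongation factor EEFSEC with the charged transfer RNA. Most selenoproteins of known function are oxidoreductases, and the liver is known as a major source of SELENOP, the selenium carrier of plasma.

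The recoded UGA, written TGA in DNA, is the feature that all 25 selenoproteins share, and its place differs between families. The windows below show it for members that the results turn on, with the TGA in capitals, read from GENCODE 29 transcripts on hg38 and written on the strand of the transcript.
GPX1, TGA at chr3:49358132-49358134 on the minus strand: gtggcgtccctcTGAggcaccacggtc
GPX4, TGA at chr19:1105403-1105405 on the plus strand: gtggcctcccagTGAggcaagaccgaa
MSRB1, TGA at chr16:1940812-1940814 on the minus strand: cagtcccgattcTGAatattcagcagc
SELENOW, TGA at chr19:47780732-47780734 on the plus strand: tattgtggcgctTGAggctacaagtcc
DIO2, TGA at chr14:80203112-80203114 on the minus strand: ggctcagccactTGAcctcctttcacg
SEPHS2, TGA at chr16:30445548-30445550 on the minus strand: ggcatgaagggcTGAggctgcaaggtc
SELENOI, TGA at chr2:26389068-26389070 on the plus strand: ccaaactcagatTGActaggaatggaa
TXNRD1, TGA at chr12:104348413-104348415 on the plus strand: caggctggctgcTGAggttaa
TXNRD3, TGA at chr3:126607911-126607913 on the minus strand: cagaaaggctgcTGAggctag
SELENOS, TGA at chr15:101272777-101272779 on the minus strand: tcatctggcggaTGAggctaa

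All lie in coding exons. In GPX1 and GPX4, which reduce peroxides with glutathione, the codon falls early, at residue 49 of 203 and at residue 73 of 197. SELENOW, a small redox protein, carries it at residue 13 of 87. In the thioredoxin reductases TXNRD1 and TXNRD3 it is the second-to-last codon, residue 498 of 499 and residue 642 of 643, with a glycine codon between it and the ordinary stop. SELENOS, which takes part in removing misfolded proteins from the endoplasmic reticulum, has the TGA at residue 188 of 189, also with a glycine codon after it. DIO2, which activates thyroid hormone, has an in-frame TGA at residue 133 of 273 and another at residue 266.

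Levels are the deposited FPKM (fragments corrected for gene length and for the size of the library), given per library or as mean ± SD over 3 libraries. Differences are in log2(FPKM + 1) ± SE from limma, with p-values adjusted over 15518 genes at a threshold of 0.05. This scale understates differences in genes near or under 1 FPKM. The libraries held 15056655 to 17211659 fragments, and 26 members reached 1 FPKM in at least 3 of the 12 libraries and were tested. GPX3, DIO2 and PSTK passed that filter through a single line. The third geniposide library of Huh7 stood apart from the other 2, with a chi-square per degree of freedom of 43.4 and 44.9 against them where the next highest within a group was 6.58, so calls with geniposide that change without it are given both ways. Of 10 transcripts of proteins secreted by hepatocytes, 0 reached 1 FPKM in either untreated line, ALB having 6 fragments over all 12 libraries and APOB and APOH none, so the names Huh7 and HepG2 stand here as labels.

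With geniposide, members rose and fell in both lines. In Huh7 and in HepG2 alike, SEPSECS and EEFSEC rose, while GPX1, MSRB1 and SEPHS1 fell. In Huh7, 5 of the 26 tested members rose, where 16.4% of all genes did, and 4 fell, where 18.1% did. In HepG2, 4 rose against 21% of all genes, and 7 fell against 21.5%. Called in either direction were 9 of the 26 in Huh7, beside 34.5% of all genes, and 11 in HepG2, beside 42.5%, so the members as a group changed about as often as other genes. Their median difference was −0.0059 in Huh7 and −0.014 in HepG2, beside 0.0024 over all genes in HepG2. All treated values lay above all untreated ones for 6 of the 26 in Huh7 and 4 in HepG2, beside 21.3% and 29.4% of all genes, and below them for 6 and 10, beside 22.6% and 29.4%. No member was called in opposite directions in the 2 lines, 15 were called in at least 1 line, and 11 in neither.

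Split by role, 1 selenoprotein of 19 tested rose and 3 fell in Huh7, and of the 7 machinery genes 4 rose and 1 fell, beside the 16.4% and 18.1% of all genes. In HepG2 the selenoproteins had 1 rise and 6 falls, and the machinery 3 rises and 1 fall, beside 21% and 21.5%. Without the third treated Huh7 library the selenoproteins had 2 rises and 8 falls in Huh7 and 1 rise and 9 falls in HepG2, and the machinery 3 rises and 1 fall in Huh7 and 3 rises and 2 falls in HepG2, beside 22.6% and 23.5% of all genes in Huh7 and 26.5% and 27.3% in HepG2. The summed level of all selenoprotein transcripts was 679 to 717 FPKM in geniposide Huh7 libraries and 790 to 815 FPKM in untreated ones. In HepG2 it was 586 to 644 FPKM with geniposide and 725 to 742 FPKM without, so the groups did not overlap in either line. Much of that gap was GPX1, which averaged 96.1 FPKM with geniposide and 158.6 FPKM without in Huh7, and 186.4 and 252.1 FPKM in HepG2. The FPKM sum of all genes was lower with geniposide too, at 234790 to 241609 against 248331 to 253080 in Huh7. In HepG2 that sum was 284526 to 297417 with geniposide and 301547 to 307503 without. Summed machinery transcripts were 62.1 to 66.3 FPKM with geniposide and 58.7 to 60.2 FPKM without in Huh7, and 63.0 to 63.4 FPKM with geniposide and 60.2 to 63.9 FPKM without in HepG2, where the ranges overlap. From bulk RNA, fewer cells that hold a transcript and less of it per cell cannot be told apart. When each value was taken as a share of its library's FPKM sum (TPM scaling), 61.6% of all calls in Huh7 were rises, against 47.5% as deposited, and the members then counted 6 rises and 3 falls, beside 21% and 13.1% of all genes.

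Other measures moved with geniposide as well, and their part in the results was not tested. The sum of 4 cholangiocyte markers, of which 2 reached 1 FPKM in untreated HepG2 cells, was 72.4 to 75.9 FPKM in geniposide HepG2 libraries and 275 to 288 FPKM in untreated ones, nearly all of it KRT7. The sum of 5 fibroblast markers, with COL1A2 at 0 in every library, was 44.5 to 46.6 FPKM with geniposide and 36.5 to 38.1 FPKM without in HepG2, although PDGFRB fell there (−0.79, adjusted p = 0.00021, limma). In Huh7 that sum was 4.94 to 7.39 FPKM with geniposide and 4.65 to 4.93 FPKM without. The sum of 4 hepatocyte factors was 5.94 to 10.3 FPKM with geniposide and 12.2 to 13.2 FPKM without in Huh7, where CEBPA fell (−0.61, adjusted p = 0.00588, limma). Mitochondrial genes held 3.70% to 4.11% of fragments in geniposide HepG2 libraries and 4.47% to 4.55% in untreated ones. Long noncoding RNA held 1.86% to 2.06% of fragments with geniposide and 1.68% to 1.74% without in Huh7, and 1.47% to 1.51% with geniposide and 1.12% to 1.17% without in HepG2. Leukocyte and endothelial markers summed to at most 1.70 FPKM in any library.

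**Figure D1:**
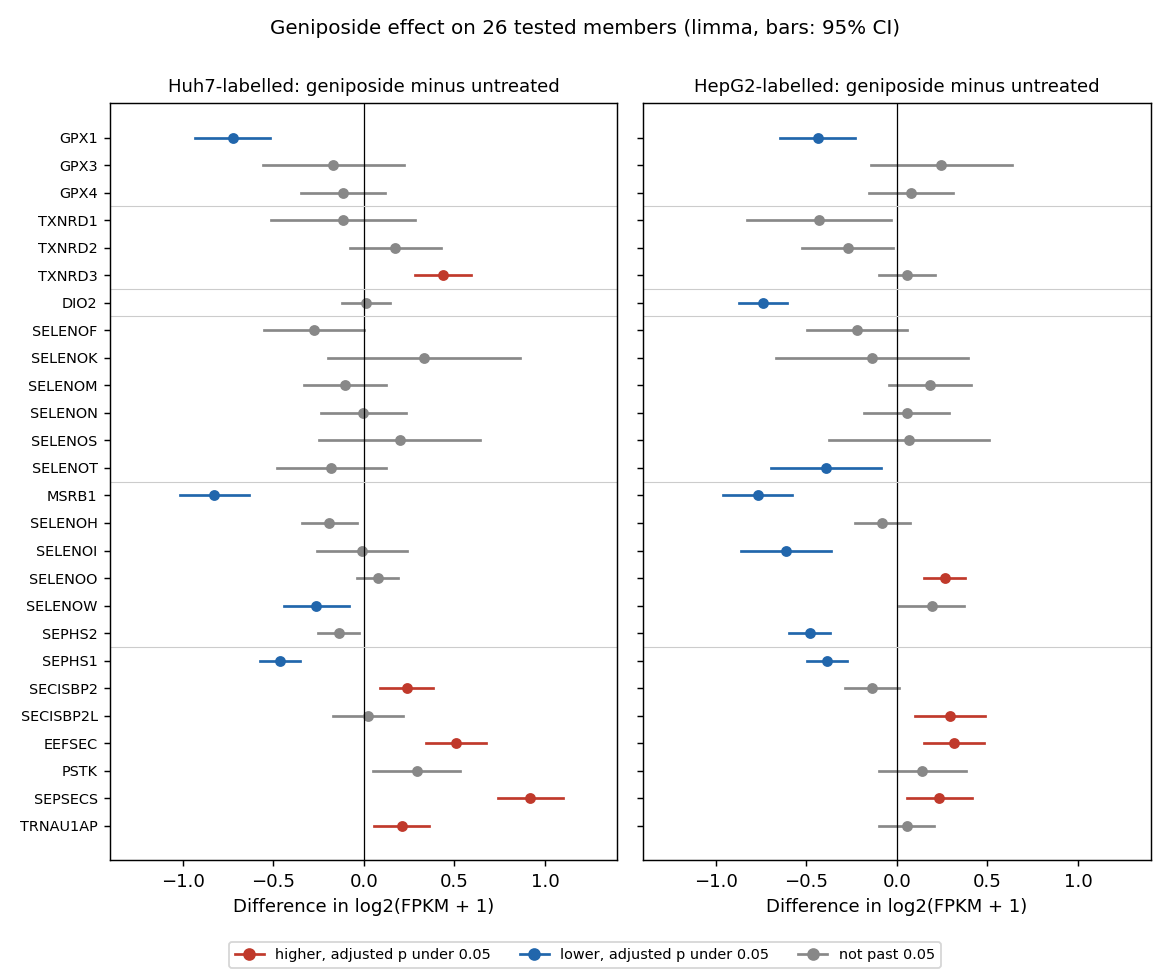
Difference in log2(FPKM + 1), geniposide minus untreated, with its 95% interval from limma, for the 26 tested members in Huh7 (left) and HepG2 (right), ordered by role. SEPSECS at 0.92 and EEFSEC at 0.51 lie on the right of 0 in Huh7, and GPX1, MSRB1 and SEPHS1 lie on the left of 0 in both panels.

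Among the glutathione peroxidases, GPX1 fell in both lines and GPX4 was not called in either. GPX1, the cytosolic enzyme that reduces hydrogen peroxide (chr3:49357171-49358600), had 102, 105 and 81.4 FPKM in geniposide Huh7 libraries, against 167, 154 and 155 FPKM in untreated Huh7 libraries. HepG2 libraries had 176, 178 and 205 FPKM with geniposide, against 255, 249 and 252 FPKM without. Every treated library lay below every untreated one in both lines. The difference was −0.72 ± 0.09 in Huh7 (adjusted p = 0.000239, limma) and −0.44 ± 0.09 in HepG2 (adjusted p = 0.00331, limma), treated means being 0.606 and 0.739 times the untreated ones. These 2 effects were not called different (0.29, 95% interval −0.0060 to 0.58, adjusted p = 0.133, limma). GPX1 made up 13.9% of summed selenoprotein FPKM in geniposide Huh7 cells, against 19.9% in untreated ones, and 30.7% against 34.3% in HepG2. The table types GPX1 as a polymorphic pseudogene, a class that GENCODE uses for a gene whose coding state varies between people.

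GPX4, which reduces lipid peroxides in membranes and is the member most tied to ferroptosis (chr19:1103926-1106791), had 188, 207 and 148 FPKM in geniposide Huh7 libraries, against 197, 190.3 and 194 FPKM in untreated ones. The third treated library was the lowest and the second the highest of all 6, so the groups overlapped. In HepG2 it had 103, 94.8 and 111 FPKM with geniposide, against 97.2, 99.2 and 95.1 FPKM without, again overlapping. The difference was −0.11 ± 0.10 in Huh7 (95% interval −0.35 to 0.12, adjusted p = 0.445, limma) and 0.079 ± 0.10 in HepG2 (95% interval −0.15 to 0.31, adjusted p = 0.607, limma). Without the third treated Huh7 library the Huh7 difference was 0.024 (adjusted p = 0.805). GPX3, the secreted plasma enzyme, ranged from 4.12 to 5.78 FPKM in geniposide Huh7 libraries and from 5.24 to 6.75 FPKM in untreated ones, and stayed at or below 1.25 FPKM in HepG2. Neither GPX2, the gut enzyme, with at most 0.436 FPKM, nor GPX6, with 3 fragments over all libraries, reached the filter. GPX6 was at 0 in every HepG2 library, where a count of 0 allows up to 0.105 FPKM by counting error.

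MSRB1 repairs oxidised methionine in proteins and showed the largest fall of any tested member in both lines. It had 10.2, 9.81 and 8.98 FPKM in geniposide Huh7 libraries, against 18.4, 18.2 and 17.1 FPKM in untreated ones (chr16:1938210-1943326). The HepG2 values were 9.22, 9.49 and 10.9 FPKM with geniposide, against 15.3, 18.7 and 18.6 FPKM without. Treated and untreated values were far apart, with no overlap. The difference was −0.83 ± 0.09 in Huh7 (adjusted p = 6.7e-05, limma) and −0.77 ± 0.09 in HepG2 (adjusted p = 5.26e-05, limma), or 0.540 and 0.562 times the untreated mean. The difference between the lines was 0.058 with a 95% interval of −0.21 to 0.33. MSRB2, a paralogue with cysteine in place of selenocysteine, rose in both lines. It averaged 12.9 ± 2.10 FPKM in geniposide Huh7 cells and 8.27 ± 0.12 FPKM in untreated ones (0.58, adjusted p = 0.000814, limma). In HepG2 it averaged 12.6 ± 0.19 FPKM with geniposide and 7.94 ± 0.65 FPKM without (0.61, adjusted p = 0.000348, limma). Of 6 cysteine-containing paralogues of selenoproteins 4 were tested, and 1 rose and 0 fell in Huh7, beside 16.4% and 18.1% of all genes. In HepG2 1 rose and 2 fell, beside 21% and 21.5% (1 and 3 without the third treated Huh7 library, beside 26.5% and 27.3%). The falls with all libraries were MSRB3 (−0.53, adjusted p = 3.47e-05, limma) and GPX8 (−0.28, adjusted p = 0.0213, limma).

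The thioredoxin reductases recharge thioredoxin with electrons from NADPH, TXNRD1 in the cytosol, TXNRD2 in mitochondria, and TXNRD3 mainly in testis. TXNRD1 had 17.9, 18.2 and 33.5 FPKM in geniposide Huh7 libraries, against 24.1, 24.3 and 24.2 FPKM in untreated ones. The first and second treated libraries lay below all untreated ones and the third above them all. The difference over all libraries was −0.12 ± 0.18 (adjusted p = 0.667, limma), and without the third treated library it was −0.40 (adjusted p = 4.65e-06, limma). In HepG2, TXNRD1 had 75.4, 75.3 and 73.8 FPKM with geniposide, against 104, 101 and 98.6 FPKM without, with no overlap and 0.741 times the untreated mean. Its test, whose spread is shared with Huh7, gave −0.43 ± 0.18 (adjusted p = 0.0795, limma). Without the third treated Huh7 library the same difference had an adjusted p of 6.38e-07.

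TXNRD3 rose in Huh7 and was not called in HepG2. It had 7.39, 7.04 and 6.82 FPKM in geniposide Huh7 libraries, against 5.17, 4.93 and 4.83 FPKM in untreated ones, without overlap (0.44 ± 0.07, adjusted p = 0.000901, limma). In HepG2 its levels overlapped, at 3.90, 3.78 and 3.45 FPKM with geniposide and 3.09, 3.74 and 3.79 FPKM without. TXNRD2 had 4.81, 5.02 and 7.33 FPKM in geniposide Huh7 libraries, against 4.75 to 5.03 FPKM in untreated ones. In HepG2 it had 5.12 to 5.23 FPKM with geniposide and 6.16 to 6.95 FPKM without, which did not overlap but missed the threshold (−0.27, adjusted p = 0.0788, limma); without the third treated Huh7 library it passed at 0.000684.

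**Figure D2:**
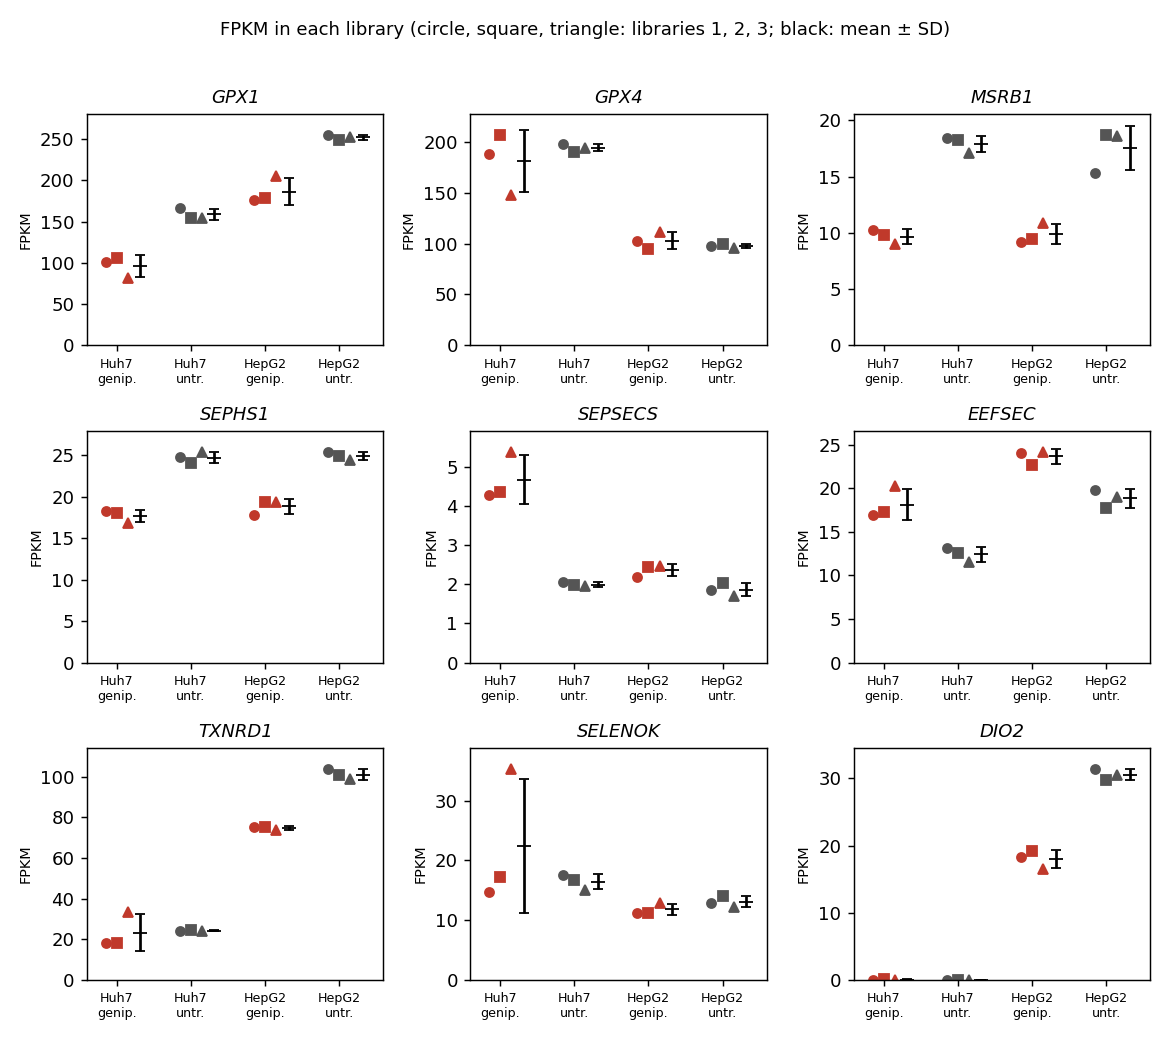
FPKM in every library for 9 members, geniposide in red left of untreated in grey, with symbols for libraries 1 to 3 and black bars for mean ± SD (n = 3). In Huh7 the third treated library is the highest point for TXNRD1 at 33.5 FPKM and SELENOK at 35.3 FPKM, while MSRB1 and SEPSECS show treated and untreated points apart.

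DIO2, the deiodinase that turns thyroxine into active triiodothyronine, fell in HepG2, the line that expresses it. HepG2 libraries had 18.2, 19.1 and 16.5 FPKM with geniposide, against 31.4, 29.8 and 30.6 FPKM without, resting on 1933 to 2032 and 3300 to 3502 fragments per library. No treated value came near an untreated one, and the difference was −0.74 ± 0.06 (adjusted p = 5.6e-06, limma), 0.587 times the untreated mean. In Huh7 the gene held 12 fragments over the geniposide libraries and 8 over the untreated ones, which gave 0.0143, 0.0609 and 0.0144 FPKM with geniposide and 0.0154, 0.0396 and 0.00806 FPKM without. DIO1, the deiodinase typical of liver, peaked at 0.177 FPKM, and DIO3, which inactivates thyroid hormone, at 0.909 FPKM in an untreated HepG2 library.

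The 6 selenoproteins of the endoplasmic reticulum gave a single call. SELENOT, a thioredoxin-like protein of that membrane, had 13.8, 12.8 and 15.4 FPKM in geniposide HepG2 libraries, against 19.4, 18.5 and 17.96 FPKM in untreated ones, without overlap (−0.39 ± 0.14, adjusted p = 0.0392, limma). In Huh7 it had 11.7, 10.95 and 17.5 FPKM with geniposide, against 15.4, 14.4 and 15.1 FPKM without. The third treated Huh7 library was the highest of those 6 and the other 2 treated libraries the lowest, and without it SELENOT fell by 0.38 on the log2 scale (adjusted p = 0.00169, limma). The HepG2 call for SELENOT passed in 10 of the 20 alternative settings run.

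SELENOK and SELENOS bind the machinery that removes misfolded proteins from the endoplasmic reticulum. SELENOK had 14.8, 17.3 and 35.3 FPKM in geniposide Huh7 libraries, against 14.98 to 17.5 FPKM in untreated ones, and SELENOS had 8.95, 8.57 and 16.9 FPKM, against 8.80 to 9.81 FPKM. For both genes the third treated library was the highest and the other treated libraries were near the untreated ones. SELENOF, which works with the folding sensor UGGT1, had 41.3, 42.6 and 60.5 FPKM in geniposide Huh7 libraries, against 57.2, 58.0 and 57.5 FPKM in untreated ones. Without the third treated library it fell by 0.45 in Huh7 (adjusted p = 0.000627, limma). SELENON, linked to calcium handling and inherited myopathy, had 39.0, 42.6 and 29.3 FPKM with geniposide and 36.0 to 37.3 FPKM without, and SELENOM, a thioredoxin-like protein, 11.1 to 12.9 FPKM and 11.8 to 13.8 FPKM. Values of SELENOK, SELENOM, SELENON and SELENOS overlapped between treated and untreated libraries in HepG2 as well, while those of SELENOF did not, at 35.9 to 43.0 FPKM with geniposide and 43.5 to 47.2 FPKM without (−0.22, adjusted p = 0.187, limma; 0.0131 without the third treated Huh7 library).

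Over the 26 tested members the third treated Huh7 library differed from the mean of the other 2 by more than 0.5 on the log2(FPKM + 1) scale for TXNRD1, SELENOF, SELENOK, SELENOS and SELENOT. It lay on the other side of the untreated mean for 11 members, against 4 for the third treated HepG2 library. The median absolute distance of the third treated Huh7 library from the mean of the other 2 was 0.24, where those 2 differed by 0.07. In HepG2 these values were 0.13 and 0.07. HMOX1, the haem oxygenase that oxidative stress induces, had 8.36, 8.51 and 33.0 FPKM in the geniposide Huh7 libraries, the third again apart. Without that library, 5 members rose and 9 fell in Huh7, beside 22.6% and 23.5% of all genes, and 4 rose and 11 fell in HepG2, beside 26.5% and 27.3%. SELENON was then among the rises in Huh7 (0.15, adjusted p = 0.0218, limma). What set this library apart was not tested.

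**Figure D3:**
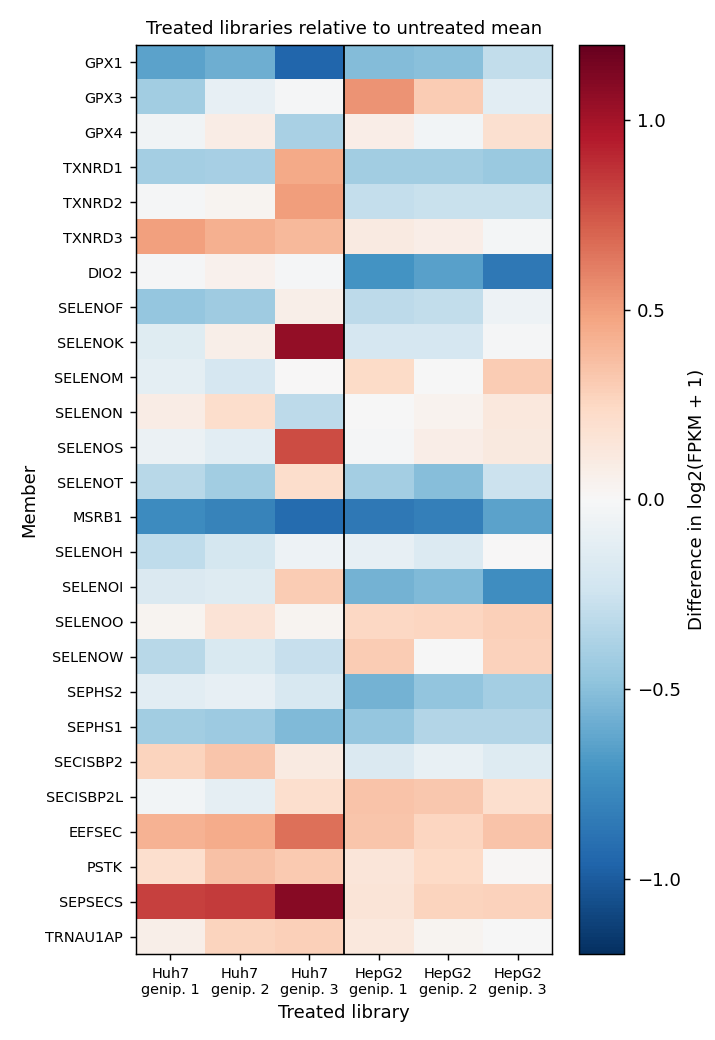
Each geniposide library minus the mean of the 3 untreated libraries of its line, in log2(FPKM + 1), for the 26 tested members (rows) in Huh7 (left columns) and HepG2 (right columns), blue for lower and red for higher. The GPX1 row runs from −0.95 to −0.58 over the Huh7 libraries, and the third Huh7 column differs in colour from the first and second in the TXNRD1, SELENOK and SELENOS rows.

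Of the remaining selenoproteins, SELENOW and SELENOI differed between the lines in how they responded. SELENOW had 5.501, 6.20 and 5.73 FPKM in geniposide Huh7 libraries, against 6.93, 7.0 and 7.55 FPKM in untreated ones, without overlap (−0.26 ± 0.08, adjusted p = 0.0288, limma), a call that held in 13 of 20 alternative settings. In HepG2 it had 8.54, 6.68 and 8.34 FPKM with geniposide, against 6.48, 6.79 and 6.88 FPKM without, with overlap (0.19 ± 0.08, adjusted p = 0.0801, limma). SELENOI, an ethanolamine phosphotransferase that makes phosphatidylethanolamine and ether phospholipids, had 8.94, 9.16 and 7.78 FPKM in geniposide HepG2 libraries, against 13.6, 13.6 and 13.9 FPKM in untreated ones. That was 0.630 times the untreated mean with no overlap (−0.61 ± 0.11, adjusted p = 0.00128, limma). In Huh7, SELENOI had 12.3, 12.4 and 17.6 FPKM with geniposide, against 13.6, 14.3 and 14.1 FPKM without, the third treated library again being the highest. Without that library SELENOI fell in Huh7 too (−0.17, adjusted p = 0.038, limma), and its effects then differed by −0.45 (adjusted p = 0.00152, limma).

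SELENOO, a mitochondrial protein that attaches AMP to other proteins, was the selenoprotein that rose in HepG2. It had 33.9, 34.4 and 35.0 FPKM with geniposide, against 27.9, 28.4 and 29.3 FPKM without, each treated library above each untreated one (0.26 ± 0.05, adjusted p = 0.00178, limma). In Huh7 it overlapped, at 24.8, 27.2 and 24.8 FPKM with geniposide and 23.2, 25.5 and 23.99 FPKM without. An antisense transcript overlaps 9.69% of its exons and averaged 3.52 FPKM, which unstranded libraries cannot separate. SELENOH, a nuclear redox protein, had 18.4, 19.7 and 22.0 FPKM in geniposide Huh7 libraries, against 22.3 to 23.7 FPKM in untreated ones, which just missed the threshold (−0.19, adjusted p = 0.0532, limma), and without the third treated library it passed (−0.26, adjusted p = 0.00448, limma). SELENOP, the plasma selenium carrier, had at most 0.359 FPKM in any library, and SELENOV, a testis protein, 4 fragments in all.

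Some selenoproteins are known to lose expression early when selenium is short, among them GPX1, MSRB1, SELENOH and SELENOW, while others such as TXNRD1, TXNRD2, GPX4, SELENOF, SELENOT and SELENOK are less affected. Of the 4 sensitive genes, 3 fell in Huh7 with a median difference of −0.49, and 2 fell in HepG2 with a median of −0.26, beside falls in 18.1% and 21.5% of all genes. Of 6 less sensitive genes (TXNRD1, TXNRD2, GPX4, SELENOF, SELENOT and SELENOK), 0 passed in Huh7, also at an unadjusted p under 0.05, and 1 fell in HepG2, with medians of −0.12 and −0.25. TXNRD3, the thioredoxin reductase that rose in Huh7 (0.44, adjusted p = 0.000901, limma), was on neither list. Without the third treated Huh7 library those counts of falls were 4 of 4 and 3 of 6 in Huh7, and 2 of 4 and 4 of 6 in HepG2, beside 23.5% and 27.3% of all genes. With all libraries the sensitive genes that fell were GPX1 and MSRB1 in both lines and SELENOW in Huh7. With TPM scaling SELENOW was not called in Huh7 (adjusted p = 0.0689, limma) and was called higher in HepG2 (0.28, adjusted p = 0.0208, limma). Both lists were chosen with earlier results of these data known, so these counts are a description. Selenium itself was not measured. Where the TGA lies more than 55 bases before the last exon junction, as it does in 15 selenoprotein genes, a transcript can be exposed to nonsense-mediated decay. Of the 10 such genes tested, 2 fell in each line with all libraries, near the 18.1% and 21.5% of all genes, with medians of −0.17 in Huh7 and −0.014 in HepG2. Of the 9 others tested, 1 rose and 1 fell in Huh7 and 1 rose and 4 fell in HepG2, with medians of 0.01 and −0.43. Without the third treated Huh7 library, SELENOF, SELENOH and SELENOT also fell in Huh7, where SELENON rose, and SELENOF and TXNRD2 also fell in HepG2. Of the others, TXNRD1 then fell in both lines and SELENOI in Huh7 as well. Falls among all genes were then 23.5% in Huh7 and 27.3% in HepG2.

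SEPHS2 and SEPHS1 are both named selenophosphate synthetases, but in animals SEPHS2, itself a selenoprotein, is the active enzyme, and SEPHS1 lacks that activity. SEPHS2 (chr16:30443631-30446181) had 22.6, 24.1 and 25.4 FPKM in geniposide HepG2 libraries, against 34.4, 35.0 and 32.5 FPKM in untreated ones, well apart (−0.48 ± 0.05, adjusted p = 3.77e-05, limma). In Huh7 it was among the most abundant members, with 156, 159 and 149.9 FPKM with geniposide, against 173, 171 and 169 FPKM without. The groups did not overlap there either, but the test missed the threshold (−0.14 ± 0.05, adjusted p = 0.0603, limma). SEPHS1 (chr10:13317424-13348298) had 18.3, 18 and 16.8 FPKM in geniposide Huh7 libraries, against 24.7, 24.02 and 25.4 FPKM in untreated ones (−0.46 ± 0.05, adjusted p = 8.58e-05, limma). In HepG2 it had 17.8, 19.4 and 19.4 FPKM with geniposide, against 25.4, 24.9 and 24.4 FPKM without (−0.39 ± 0.05, adjusted p = 0.000133, limma). Treated and untreated levels of SEPHS1 were almost the same in the 2 lines, and the difference between its effects was 0.075, with a 95% interval of −0.082 to 0.23.

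SEPSECS, the enzyme that completes selenocysteine on its transfer RNA (chr4:25120014-25160442), had the largest rise among the tested members in Huh7. It had 4.27, 4.36 and 5.39 FPKM in geniposide Huh7 libraries, against 2.06, 1.97 and 1.95 FPKM in untreated ones, 2.35 times the untreated mean. HepG2 libraries had 2.19, 2.44 and 2.47 FPKM with geniposide, against 1.86, 2.03 and 1.71 FPKM without. All treated libraries lay above all untreated ones in both lines, by a wide margin in Huh7 and a narrow one in HepG2. The difference was 0.92 ± 0.08 in Huh7 (adjusted p = 2.53e-05, limma) and 0.23 ± 0.08 in HepG2 (adjusted p = 0.0384, limma); the HepG2 call held in 10 of 19 alternative settings. PSTK, the kinase of the step before, had 1.57, 1.84 and 1.77 FPKM in geniposide Huh7 libraries, against 1.31, 1.35 and 1.03 FPKM in untreated ones, without overlap but short of the threshold (0.29, adjusted p = 0.0604, limma).

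EEFSEC, the elongation factor that carries selenocysteyl-tRNA to the ribosome (chr3:128153454-128408646), rose in both lines. It had 16.9, 17.2 and 20.2 FPKM in geniposide Huh7 libraries, against 13.2, 12.5 and 11.5 FPKM in untreated ones (0.51 ± 0.08, adjusted p = 0.000529, limma). The HepG2 values were 24.1, 22.7 and 24.2 FPKM with geniposide, against 19.8, 17.7 and 19.0 FPKM without (0.31 ± 0.08, adjusted p = 0.00623, limma). Neither line showed overlap. RUVBL1, on the opposite strand with a mean of 17.5 FPKM, overlaps 15.3% of EEFSEC exons. If the libraries are unstranded, which was not checked, fragments from that stretch cannot be assigned to either gene.

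Of the SECIS-binding proteins, SECISBP2, which is needed for reading UGA as selenocysteine, had 10.2, 10.7 and 9.06 FPKM in geniposide Huh7 libraries, against 8.28, 8.40 and 8.26 FPKM in untreated ones (0.24 ± 0.07, adjusted p = 0.0189, limma). Its HepG2 values were 3.47, 3.75 and 3.53 FPKM with geniposide, against 4.14, 3.71 and 4.30 FPKM without (−0.14, adjusted p = 0.122, limma; 0.0389 without the third treated Huh7 library). Huh7 values did not overlap and HepG2 values did, and the Huh7 call held in 15 of 20 alternative settings. SECISBP2L, its paralogue, had 8.58, 8.47 and 7.73 FPKM in geniposide HepG2 libraries, against 6.67, 5.90 and 7.13 FPKM in untreated ones (0.29 ± 0.09, adjusted p = 0.0192, limma; past the threshold in 17 of 20 alternative settings), and overlapped in Huh7 at 3.28, 3.06 and 4.05 FPKM with geniposide and 3.36, 3.32 and 3.46 FPKM without. Its effects were not called different between the lines (0.27, adjusted p = 0.127, limma), though they were without the third treated Huh7 library (0.36, adjusted p = 0.0133, limma). TRNAU1AP, which associates with the selenocysteine transfer RNA, had 7.63, 8.85 and 9.02 FPKM in geniposide Huh7 libraries, against 7.20, 7.29 and 7.13 FPKM in untreated ones (0.21 ± 0.07, adjusted p = 0.0358, limma). That call did not hold without the third treated library (0.17, adjusted p = 0.0664, limma), and the HepG2 values overlapped, at 6.19, 5.73 and 5.57 FPKM with geniposide and 5.30, 5.46 and 5.99 FPKM without.

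The effect of geniposide in HepG2 minus that in Huh7 passed the threshold for 7 of the 26 tested members, 1 higher beside 14.1% of all genes and 6 lower beside 13.7% (27.8% in either direction). SELENOW was the higher one, with effects of 0.19 in HepG2 and −0.26 in Huh7 (difference 0.45 ± 0.11, adjusted p = 0.0145, limma). The value for DIO2, −0.75, restates its fall in HepG2, because the gene entered the test through HepG2 alone, had a level near 0 in Huh7 that could not move on this scale, and was not called with voom on fragments (adjusted p = 0.267). SEPSECS differed by −0.68 ± 0.11 (adjusted p = 0.00181, limma), having risen less in HepG2, and SELENOI by −0.60 ± 0.16 (adjusted p = 0.0172, limma), having fallen in HepG2. TXNRD3, SECISBP2 and SEPHS2 differed by −0.38, −0.37 and −0.34. Leaving out the third treated Huh7 library gave 2 higher and 7 lower, beside 19.6% and 20.2% of all genes, SECISBP2L and TXNRD2 (−0.28) being added. With fragments in place of FPKM, in limma's voom, 40.1% of all calls were higher in HepG2, against 50.8% as deposited.

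Untreated, the lines differed in which selenoprotein was most abundant. Of the 26 tested members 8 were higher in HepG2 than in Huh7, beside 36.1% of all genes, and 10 were lower, beside 35.8% (71.8% in either direction). These include DIO2, GPX3 and PSTK, which passed the filter through the line where they are high and so had to differ. In untreated HepG2 cells GPX1 led with 252 ± 3.18 FPKM, followed by TXNRD1 with 101 ± 2.58 FPKM and GPX4 with 97.2 ± 2.04 FPKM, the last 2 overlapping in range. In untreated Huh7 cells GPX4 led with 194 ± 3.45 FPKM, followed by SEPHS2 with 171 ± 1.74 FPKM and GPX1 with 159 ± 7.19 FPKM. The ranges of these 3 did not overlap, and SELENOF came next with 57.6 ± 0.41 FPKM. Order and shares depend on the deposited gene lengths, which are 1430 bases for GPX1, 2019 for GPX4, 2551 for SEPHS2 and 6708 for TXNRD1. By fragments, SEPHS2 (22114) was above GPX4 (19861) in untreated Huh7 cells. TXNRD1 (30137) was above GPX1 (16025) in untreated HepG2 cells. GPX1 held 34.3% of the summed selenoprotein FPKM in HepG2 and 19.9% in Huh7, SEPHS2 4.63% and 21.4%, and TXNRD1 13.8% and 3.03%.

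DIO2 had the widest gap between the lines, given as a description, at 31.4, 29.8 and 30.6 FPKM in untreated HepG2 libraries, against 0.0154, 0.0396 and 0.00806 FPKM in untreated Huh7 libraries. TXNRD1 had 104, 101 and 98.6 FPKM in HepG2, against 24.1, 24.3 and 24.2 FPKM in Huh7, 4.17 times as much (2.02 ± 0.18, adjusted p = 1.48e-06, limma). SEPHS2 went the other way, with 34.4, 35.0 and 32.5 FPKM in HepG2, against 173, 171 and 169 FPKM in Huh7, 0.199 times as much (−2.30 ± 0.05, adjusted p = 1.21e-11, limma). None of these ranges came close to overlapping. GPX3 had 0.808, 0.375 and 0.483 FPKM in HepG2, against 6.75, 5.24 and 5.498 FPKM in Huh7, likewise a description. SELENOM had 4.79, 5.13 and 3.99 FPKM in HepG2, against 12.9, 11.8 and 13.8 FPKM in Huh7 (−1.30 ± 0.10, adjusted p = 4.84e-07, limma). GPX4 was 0.501 times as abundant in HepG2 as in Huh7 (−0.99 ± 0.10, adjusted p = 6.38e-06, limma).

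The SECIS-binding proteins differed in opposite directions: SECISBP2 was lower in HepG2, at 4.05 ± 0.31 FPKM against 8.31 ± 0.07 FPKM in Huh7 (−0.89 ± 0.07), and SECISBP2L higher, at 6.57 ± 0.62 FPKM against 3.38 ± 0.08 FPKM (0.79 ± 0.09). MSRB1, SELENOI, SEPHS1 and SEPSECS differed between the lines by less than 0.07 on the log2 scale as deposited and were not called; with TPM scaling all were called lower in HepG2, by −0.31, −0.31, −0.26 and −0.33. The scaling matters more here than for geniposide, because TPM scaling moved the median of all genes by −0.27. On that scale 36.6% of all calls were higher in HepG2, against 50.2% as deposited, the members counted 5 higher and 17 lower, and SELENOH (0.19 as deposited) and SELENOO (0.23) changed sign to −0.085 and −0.044, beside 27.3% of all genes called higher and 47.3% called lower.

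**Figure D4:**
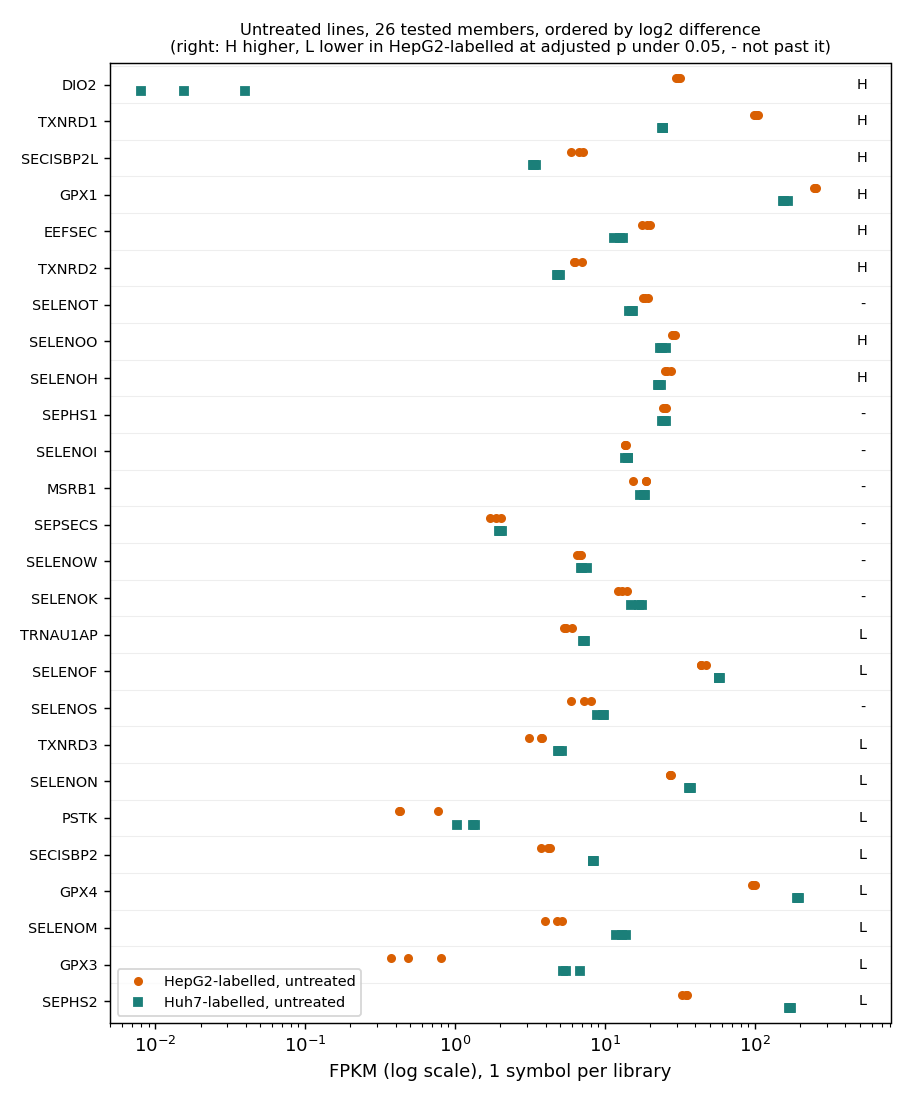
FPKM in each untreated library on a log axis, HepG2 as circles and Huh7 as squares, for the 26 tested members ordered by their log2 difference, HepG2 minus Huh7, with letters for called higher (H), called lower (L) and not called (-). DIO2 is at one end, with HepG2 libraries near 30.6 FPKM and Huh7 libraries below 0.04 FPKM, and SEPHS2 at the other end, with 34.0 FPKM on average in HepG2 and 171 FPKM in Huh7.

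Genes around the pathway were counted from lists, to be read beside the 16.4% of all genes that rose and 18.1% that fell in Huh7 and the 21% and 21.5% in HepG2. Those shares without the third treated Huh7 library were 22.6% and 23.5% in Huh7 and 26.5% and 27.3% in HepG2. Of the selenium supply genes, 4 of 6 were tested, and 1 rose and 1 fell in each line (3 and 1 in Huh7, 2 and 1 in HepG2 without the third treated Huh7 library). In both lines LRP8, the receptor for SELENOP in mouse brain and testis, fell, and LRP1, a large endocytic receptor, rose. LRP8 averaged 3.16 ± 0.89 FPKM in geniposide Huh7 cells and 4.32 ± 0.16 FPKM in untreated ones (−0.38, adjusted p = 0.0395, limma), and 4.39 ± 0.04 FPKM in geniposide HepG2 cells and 8.90 ± 0.40 FPKM in untreated ones (−0.87, adjusted p = 0.000286, limma). LRP1 averaged 13.2 ± 2.81 FPKM in geniposide Huh7 cells and 8.15 ± 0.35 FPKM in untreated ones (0.62, adjusted p = 0.0137, limma), and 90.0 ± 18.04 FPKM in geniposide HepG2 cells and 37.3 ± 2.99 FPKM in untreated ones (1.23, adjusted p = 0.000153, limma). SCLY, the lyase that recovers selenium from selenocysteine, stayed under the filter in all groups, at 0.231 to 0.997 FPKM on average.

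Among 6 genes that charge or modify the transfer RNA, 2 rose and 1 fell in Huh7, and 2 fell in HepG2 (1 rise and 3 falls without the third treated Huh7 library). SARS1, the seryl-tRNA synthetase, averaged 123 ± 50.7 FPKM in geniposide Huh7 cells and 58.2 ± 2.45 FPKM in untreated ones (0.996, adjusted p = 0.00332, limma), and 31.3 ± 0.85 FPKM in geniposide HepG2 cells and 38.3 ± 1.52 FPKM in untreated ones (adjusted p = 0.299). Its effects differed between the lines by −1.28 (adjusted p = 0.00795, limma). ALKBH8, which completes the wobble base that stress-related selenoproteins need in mouse cells, fell in HepG2 (1.17 ± 0.45 FPKM with geniposide and 2.17 ± 0.12 FPKM without, adjusted p = 0.00589, limma). Of 6 other proteins that bind SECIS elements or help there, 1 rose and 2 fell in Huh7 (1 and 4 without the third treated library), and 4 fell in HepG2. NCL, nucleolin, averaged 108 ± 3.13 FPKM in geniposide Huh7 cells and 183 ± 2.26 FPKM in untreated ones (−0.75, adjusted p = 1.3e-06, limma), and 50.05 ± 0.38 FPKM in geniposide HepG2 cells and 80.8 ± 0.37 FPKM in untreated ones (−0.68, adjusted p = 6.31e-07, limma). EIF4A3, which competes with SECISBP2 for some SECIS elements, fell by 0.35 on the log2 scale in each line.

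Among the nonsense-mediated decay genes, SMG5 rose in Huh7 by 0.25 on the log2 scale, and UPF3A and SMG1 rose in HepG2 by 0.21 and 0.26. Of the genes for degrading truncated selenoproteins, 4 of 5 were tested. KLHDC2, the receptor that recognises such ends, rose in both lines, by 0.61 in Huh7 and 0.21 in HepG2, and the scaffold CUL2 fell in both, by 0.40 and 0.47. Among 8 protein partners, 3 fell in Huh7 (7 without the third treated library), and 1 rose and 6 fell in HepG2. TXN, the thioredoxin that TXNRD1 reduces, averaged 146 ± 3.97 FPKM in geniposide Huh7 cells and 239 ± 9.46 FPKM in untreated ones (−0.70, adjusted p = 2.61e-05, limma), and 167 ± 14.3 FPKM in geniposide HepG2 cells and 296 ± 4.45 FPKM in untreated ones (−0.82, adjusted p = 4.04e-06, limma). VCP, the segregase that SELENOS recruits, fell by 0.63 and 0.83, and TXN2, the substrate of TXNRD2, by 0.23 and 0.38. Of 12 genes linked to the oxidant-responsive factor NRF2, 1 rose and 5 fell in Huh7 (1 and 8 without the third treated library), and 1 rose and 6 fell in HepG2 (2 and 8), among the falls GCLM, NQO1 and TXN in both. The 12 are not all targets: they include NFE2L2, which encodes NRF2, and its inhibitor KEAP1. KEAP1 was among the falls in Huh7 (−0.42, adjusted p = 0.000284, limma). TXN is counted among the protein partners as well.

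A promoter of 300 bases, from 250 before to 50 after the gene's start in RefSeq on GRCh38.p14, was found for 29 of the 32 members. The motifs were searched on both strands, and none contains another. The core of the antioxidant response element, TGACNNNGC, lay in 5 of these 29 (GPX2, TXNRD1, SELENOK, SELENON and SELENOP), or 17.2%, and in 13.6% of 27305 promoters. For TXNRD1 only the window at its outermost start, chr12:104215779, was searched. Whether NRF2 acts on TXNRD1 through these matches was not tested. They are shown with the match in capitals.
TXNRD1, chr12:104215680-104215688 on the plus strand: ggctaTGACTTCGCtgttg
TXNRD1, chr12:104215771-104215779, match on the minus strand: cttcgGCTCCGTCAgttcc
The amino acid response element, searched as TGATGNAA, lay in SEPHS1 alone among the members and in 3.67% of all promoters. The endoplasmic reticulum stress element, searched as CCAAT and CCACG with 9 bases between them, lay in 0 of the 29 and in 0.0806% of all. These matches describe the letters in each window and no binding was measured.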

How the data were processed

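Poly(A) RNA of 12 libraries (2 lines, geniposide for 48 h or untreated, 3 libraries each) was analysed from the table of FPKM that the authors deposited, with 0 columns left over. Per the submitters' processing notes, CASAVA, fastp and build hg38 were used. For aligner and counter the sources used here name no program. FPKM times gene length came out, for 100% of values, within 0.05 of a whole number of fragments of that library. Summed fragments were 15056655 to 17211659. The total the authors divided by was 0.895 to 1.17 times that sum. All 58735 gene identifiers had the coordinates of GENCODE 29. The lowest chi-square per degree of freedom between 2 libraries of a group was 2.2, so each counted as a sample. The labels do not say that they came from separate cultures, so the spread behind the p-values is that between these libraries and may be technical. Counting limits at 0 use 3 fragments and cover counting error only, because fragments carry no molecular identifiers.

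Tests were run on log2(FPKM + 1) with limma 3.58.1 (R 4.3.3): a model of 4 group means with 8 residual degrees of freedom and an intensity trend, two-sided, with Benjamini-Hochberg adjustment over 15518 genes that had 1 FPKM or more in at least 3 libraries. Members below that filter came from the unfiltered fit over 35698 genes. The fit was tested on simulated data. Alternatives were a pseudocount of 0.1, a filter of 5 FPKM or none, TPM scaling (FPKM over its library sum), median-of-ratios scaling, voom on fragments, the replicate number as a block, a fit per line, and leaving out each library. All 32 members are accounted for, and those called with geniposide, those called between untreated lines with a difference of at least 1, and GPX4 have each library's value. Other genes are named up to 4 per list where called, and some are not reported here. The members and lists were chosen with earlier results of these data known. Selenocysteine codons came from GENCODE 29 and promoters from RefSeq; protein sequences were not used here.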

Additional observations from a re-analysis of the deposited data

Results flagged for a closer look

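For 7 members the response to geniposide differed between the lines in limma's test of the difference (HepG2 effect minus Huh7 effect, log2 scale). SELENOW had a difference of 0.45, and the others were negative: DIO2 with −0.75, SEPSECS with −0.68, SELENOI with −0.60, TXNRD3 with −0.38, SECISBP2 with −0.37 and SEPHS2 with −0.34. DIO2 entered the test through HepG2 alone and has at most 8 fragments in any Huh7 library, so its value restates the fall in HepG2, and it was not called with voom on fragments.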

How the results depend on the processing

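Of the calls on single members with geniposide, GPX1, MSRB1, SEPHS1 and EEFSEC in both lines, SEPSECS and TXNRD3 in Huh7, and DIO2, SELENOI, SELENOO and SEPHS2 in HepG2 passed in all settings in which they were tested. Leaving out each library in turn gave 3 to 6 rises and 3 to 9 falls in Huh7, 3 to 4 rises and 6 to 11 falls in HepG2, 1 to 2 members with a higher and 6 to 7 with a lower effect in HepG2, and 6 to 9 higher and 9 to 12 lower between the untreated lines. A fit of Huh7 alone gave 3 rises, which has fewer samples. TPM scaling and voom each gave 5 members higher and 17 lower between the untreated lines; the cause was not tested. Among the called results and GPX4, signs changed for GPX4 in Huh7 and, between untreated lines, for SELENOH and SELENOO. GPX4 in Huh7 ran from −0.22 to 0.024 with libraries left out and was positive only without the third treated one. SELENOH was −0.085 with TPM scaling and −0.093 with voom, and SELENOO −0.044 and −0.052. Some results that were not called changed sign too, among them SELENOI in Huh7 in 5 of 20 settings and SELENON there in 4. The DIO2 difference lost its call with voom (adjusted p = 0.267, −1.17). Same-numbered libraries did not deviate together (correlations of −0.06 to 0.02), and not every library correlated best with its own number, so the numbers name the samples only. With the replicate number as a block the counts were 4 and 4 in Huh7, 3 and 7 in HepG2, 1 and 6 for the difference and 8 and 10 between untreated lines. Genes near 0, such as DIO2 in Huh7, are limited by their few fragments.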
